A study of Mus musculus with 6 samples.

Results

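RNA bisulfite sequencing listed 573 cytosines inside exact 6-base tandem repeats, out of 1457376 nuclear cytosines covered by at least 20 reads in both biological replicates of 1 or more time points. A cytosine was taken when the 21-nt context centred on it repeated with a period of 6 and with no shorter period. The members lay in 36 arrays, an array being a run of members of 1 strand less than 100 bases apart. The telomere-type unit CCCTAA held 439 members in 10 arrays, other units with no G held 99 members in 14 arrays, and units with G held 35 members in 15 arrays; 3 arrays mixed CCCTAA with CCCCAA. No level was asked of a member, but a cytosine is listed only where at least 1 read showed C, so fully converted repeat cytosines could not be members.

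The RNA came from WT C57BL/6 cortical neurons of E16.5 embryos, males and females pooled. All cultures were silenced at day 6 in vitro with 1 µM tetrodotoxin (TTX), which blocks voltage-gated sodium channels, and 100 µM DL-AP5, an NMDA receptor antagonist, and then depolarised with KCl at 55 mM, for 0 (no KCl), 2 or 6 h, with 2 samples each that the labels call biological replicates. The 0 h cultures share the silencing. Poly(A) RNA was converted with bisulfite, which turns unmethylated cytosines into uracil (read as T), so that the share of reads still showing C at a cytosine is its methylation level. A C that remains for any other reason counts the same way. The 6 libraries listed between 1559828 and 2374392 cytosines, and the coverage summed over them ran from 1637706778 to 2352246636. A position was listed only with at least 10 reads and at least 1 read showing C, so a fully converted cytosine is absent from the files. At cytosines with 5000 reads or more and a level under 1%, the unconverted share was 0.115% in 6 h replicate 1 and 0.0837% to 0.0869% in the other libraries. All 7 neuronal marker genes had listed cytosines in all 6 libraries, 3762 to 4847 per library in sum. The same held for 4 of 4 astrocyte markers (491 to 841 cytosines), 2 of 3 oligodendrocyte markers (66 to 216), 1 of 4 microglial markers (66 to 172) and 0 of 2 endothelial markers (0 to 3), with no listed cytosine in Mog, P2ry12, Csf1r or Cldn5.

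Vertebrate chromosome ends carry tandem copies of a telomeric repeat, whose C-rich strand reads CCCTAA and whose G-rich strand reads TTAGGG. Stretches of the same repeat also lie inside chromosomes. RNA transcribed from telomeres is known mostly in its G-rich form, TERRA. Short tandem repeats of other units are spread through introns, untranslated regions and coding exons, and RNA without G has no G to pair its cytosines with in Watson-Crick pairs.

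The contexts below carry the results, with the measured cytosine in capitals. The first 3 lines show the only contexts of the telomere-type class, one for each C of the unit CCCTAA, as they stand in the Y chromosome array. The variant with an extra C comes from the arrays opposite to Wdr76. The Kcnma1 lines are contexts with intermediate levels, and the others show intermediate or low units.

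Telomere-type, position 1 of the unit: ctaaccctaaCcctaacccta
Telomere-type, position 2 of the unit: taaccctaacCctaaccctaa
Telomere-type, position 3 of the unit: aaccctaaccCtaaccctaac
Telomere-like variant opposite to Wdr76: ccaaccccaaCcccaacccca
Kcnma1, position 1 of the unit: ctctccctctCcctctccctc
Kcnma1, position 3 of the unit: ctccctctccCtctccctctc
No annotated gene, chromosome 5: ttttctttttCtttttctttt
Gnaq: aaaacaaaaaCaaaaacaaaa
Arsb: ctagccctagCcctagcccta
Plagl1: gagccagagcCagagccagag
Sympk: ccggccccggCcccggccccg

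All 573 contexts matched the reference genome (GRCm38, mm10) at their coordinates, with 0 differing. The nuclear chromosomes of that build hold 7490 telomere-type cytosines of this kind, of which 5.86% were members. They hold 371826 cytosines in other units with no G and 271252 in units with G, of which 0.0266% and 0.0129% were members. A cytosine at a low level is listed only where enough reads cover it for at least 1 to show C. These shares therefore depend on level as well as on coverage, and do not compare how often the units were transcribed.

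**Figure D1:**
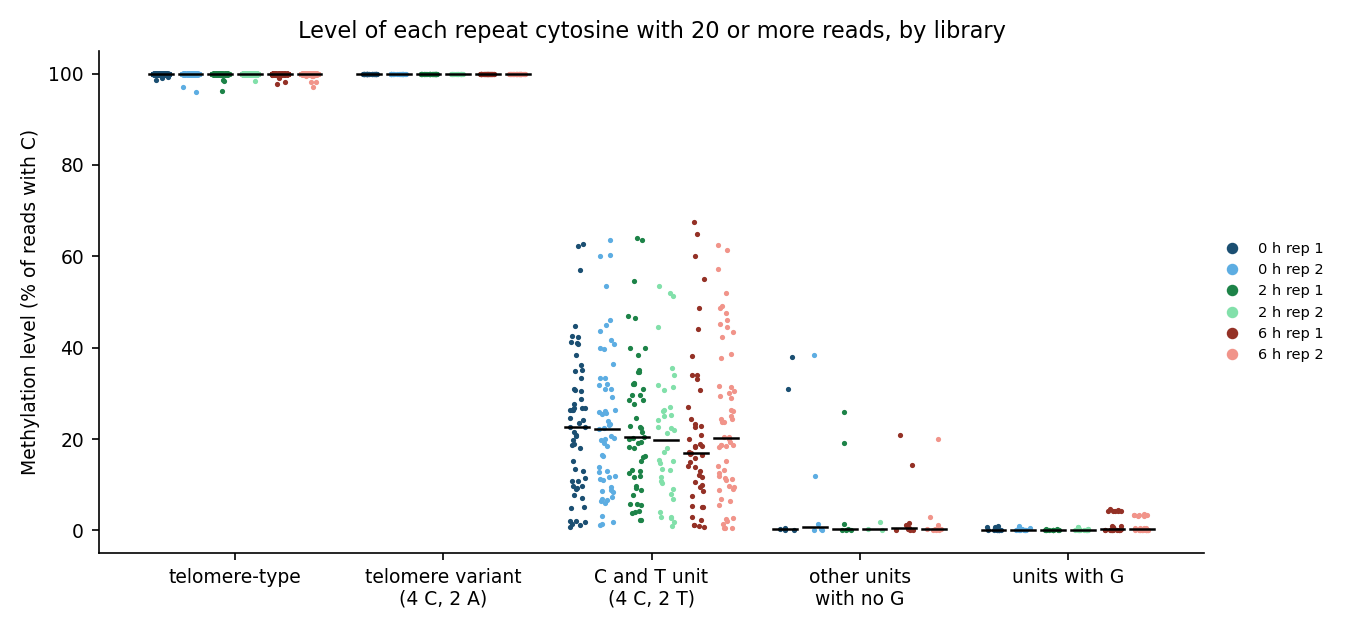
Methylation level (percent of reads with C, vertical axis) of every repeat cytosine with at least 20 reads, 1 point per cytosine, by library within 5 groups of units; black bars are medians. The unit of 4 C and 2 A is CCCCAA and that of 4 C and 2 T is CCCTCT. Both telomere-like groups sit at 100% at the median in all 6 libraries, the unit of 4 C and 2 T spreads from near 0 to 67.5%, and units with G stay at or below 4.76%.

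Telomere-type cytosines read as almost wholly unconverted in every library. The median level was 100% in each of the 6 libraries (SD 0 over the libraries, n = 6), and between 398 and 434 members stood at exactly 100% out of 400 to 439 with 20 reads. The lowest level of any member in any library was 96.0%, so 0 members were below 90% in any library. Summed over these cytosines and all 6 libraries, 547032 read bases were C and 25 were T, and T made up 0.00341% to 0.00585% per library. In this and the other sums over cytosines, a read counts once at each cytosine it covers, and PCR copies were not told apart, so the sums are not numbers of independent molecules and no interval is given. Of 394 members with 20 reads in all 6 libraries, 376 were at 100% in all of them. The position of the C in the unit made no visible difference, with summed levels of 99.9886% to 100% over the 3 positions and 6 libraries.

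The best covered telomere-type array lay on the Y chromosome (chrY:4036633-4036736, plus strand, no annotated gene, 43 members). Its best covered member, at position 4036699, had 1569 and 576 reads without KCl, 788 and 494 after 2 h, 1017 and 1065 after 6 h, all of them C. The next array was on chromosome 8 (chr8:83756781-83756973, plus strand, no annotated gene, 55 members), where the best covered member at 83756953 was again at 100% in all 6 libraries on 207 to 716 reads. The third was on chromosome 18, in an intron of AC150274.2 (39 members), with a best covered member at 100% on 226 to 720 reads. Among members with 20 reads in all 6 libraries the lowest mean level was that of chr8:83756781-83756781, 99.4% ± 0.699 (SD, n = 6). Its levels were 99.2% and 100% without KCl, 100% and 98.3% after 2 h, 99.1% and 100% after 6 h, and overlap. The Y chromosome array held 40.9% to 43.7% of all telomere-type coverage in each library.

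Arrays near assembled chromosome ends behaved like those inside chromosomes. The array of chromosome 12 (chr12:120028712-120028960, minus strand, 116 members) ended 100062 bases from the end of the chromosome sequence, of which only 62 are called bases and the rest are unsequenced. That of chromosome 3 (chr3:159939423-159939594, minus strand, 78 members) ended 100086 bases from the end, with 86 called, and that of the X chromosome (chrX:170881074-170881227, minus strand, 69 members) 150072 bases from the end, with 72 called. Their summed levels were at least 99.9% in every library. The remaining arrays lay opposite to introns, of Lrp1b (chr2:41896224-41896266, 15 members), of Slc14a2 on chromosome 18 (31 members) and of Wdr76 (chr2:121522524-121522578, 11 members, and chr2:121522778-121522856, 13 members). The arrays opposite to Slc14a2 and Wdr76 hold separate stretches of CCCTAA and of the variant CCCCAA, and all 31 CCCCAA members were at 100% in each library that listed them with 20 reads, with 0 converted reads against 14001 unconverted reads. The best covered of them, opposite to Slc14a2, had 82 to 215 reads. Of the 439 telomere-type members, 39 lay in an annotated gene of their own strand and 0 in an exon.

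Within the spans of the 10 telomere-type arrays the genome has 637 cytosines, of which 619 were listed in 1 or more libraries. Cytosines that were not members but lay within 50 bases of a telomere-type member on the same strand and had 20 reads in 1 or more libraries had a median level of 100%, both for the 269 with no G in their context (266 above 90%, 3 below 10%) and for the 41 with a G in their context (40 above 90%, 0 below 10%). The high level was not limited to exact repeats, nor to contexts without G.

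**Figure D2:**
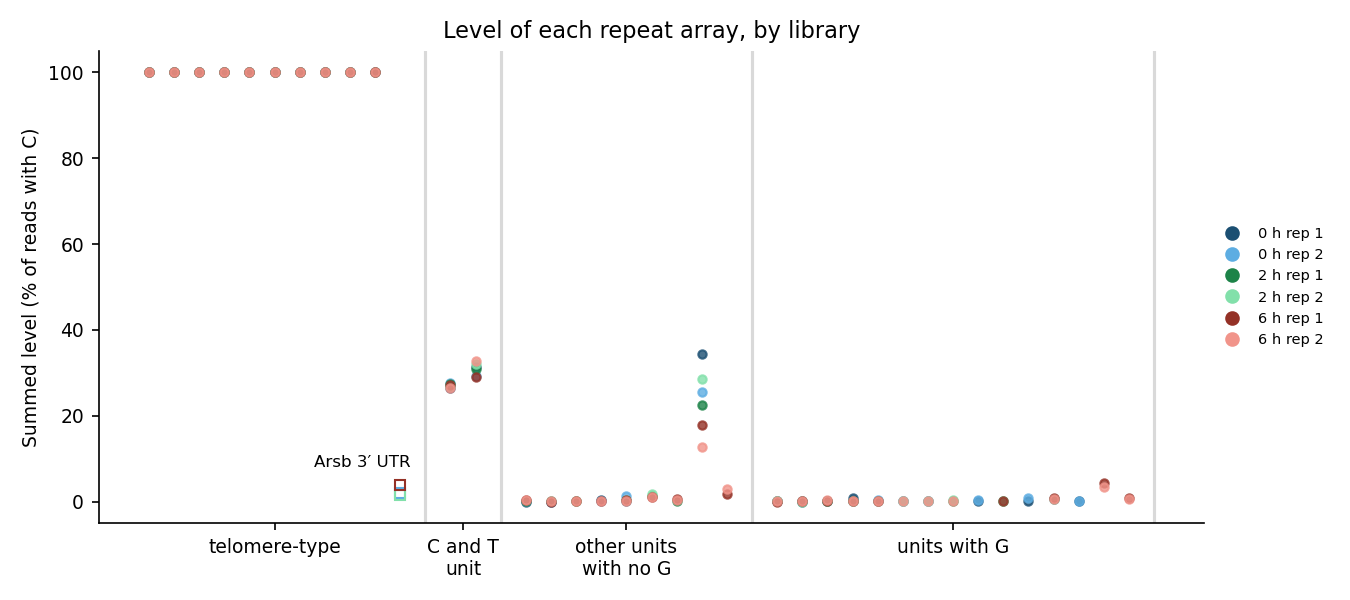
Summed level (percent of reads with C) of each repeat array in each library, arrays ordered by summed coverage within a class; open squares are the telomere-type cytosines of the Arsb 3′ UTR, which are not members. All 10 telomere-type arrays overlap at the top, and the Arsb squares lie below 4%.

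Among listed positions, telomere-type contexts were low at 1 place. Converted cytosines are mostly not listed, so the number of low places in the genome cannot be counted here. The 3′ UTR of Arsb, which codes for the lysosomal enzyme arylsulfatase B, holds 16 listed telomere-type cytosines (chr13:93941224-93941254, plus strand). They were not listed with 20 reads in both replicates of any time point, so they are not members. Summed over positions and libraries, 18 read bases were C and 511 were T, or 3.40% C, in the same 3 contexts that stood at 100% elsewhere. How many molecules carried these C was not tested. In 6 h replicate 1 all 16 were listed, each with 1 unconverted read on 23 to 27 reads, and in 0 h replicate 2 and 2 h replicate 2 only 1 was listed, at 2.00% and 1.52%. Positions with 0 unconverted reads are not listed, so these levels overstate the share of C. The other 14 runs of listed telomere-type cytosines that were not members, 267 positions in all, stood at 98.6% to 100%, with 8554 unconverted and 6 converted reads.

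Next to these cytosines, the same Arsb 3′ UTR holds 7 members in the unit CCCTAG (chr13:93941272-93941284). They were listed only at 6 h, where the summed level was 4.35% in replicate 1 and 3.38% in replicate 2 on 21 to 31 reads each. Both units of this transcript were thus converted in most reads.

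Reads in the telomere-type arrays also differed from the reference at bases that break the repeat. A reference T that stands where the flanking 12 bases of exact repeat call for C occurred at 9 places in 5 arrays. At all 9, the files listed reads with C, and C made up 99.1% to 100% of reads in every library that listed the position (15121 of 15133 reads in all). In the Y chromosome array this was T4036724C (reference base, position on the chromosome, base in the reads). All reads carried C there, 1546 and 571 without KCl, 785 and 486 after 2 h, 1006 and 1061 after 6 h. On chromosome 8 it was T83756828C, with C in 592 of 593 and 229 of 229 reads without KCl, 286 of 287 and 182 of 182 after 2 h, 337 of 337 and 342 of 343 after 6 h. The array opposite to Lrp1b had T41896201C and T41896277C, both at 100% in the 4 libraries that listed them. The arrays with 10 bases on either side, which do not take in all 9 places, hold 213 reference T, of which 5 to 7 were listed with C in each library. Those that do not break the repeat in this way were 1 or 2 in the chromosome 12 array, with 16.7% to 45.5% C in the 5 libraries that listed any, and 1 in the Y chromosome array, with 0.762% to 1.41% C in 5 libraries. Bases other than T that break the repeat occurred at 5 places, of which 1 was listed. Conversion turns C into T and cannot turn T into C, so the reads at these places carry a base that the reference at their aligned position does not have. The source of these reads was not tested.

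The unit CCCTCT gave intermediate levels. It held 58 members in 2 arrays, with mean levels of 0.898% to 61.7%. Described here is the array in an intron of Kcnma1, a potassium channel gene (chr14:23521919-23521945, minus strand, 18 members). The other array holds the remaining 40 members and most of the reads, so the values of Kcnma1 do not represent the unit. Its summed level was 31.3% and 29.3% without KCl, 31.0% and 32.2% after 2 h, 29.1% and 32.8% after 6 h, on 230 to 844 reads summed over members. The time points overlapped.

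The 18 members had mean levels of 20.7% to 40.6%, and 0 of them had 20 reads in all 6 libraries. The highest and the lowest are named as chosen after their values were seen. The highest, at 23521923, stood at 44.7% and 40.9% without KCl, 40% and 50% after 2 h, 22.7% and 45.2% after 6 h, on 14 to 47 reads. The lowest, at 23521921, stood at 18.8% and 33.3% without KCl, 28.6% and 15.4% after 2 h, 15.8% and 12.5% after 6 h, on 13 to 48 reads. The levels of either varied between libraries by more than 20 percentage points. The time points overlapped for the former, and for the latter 6 h lay below 0 h and overlapped with 2 h.

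Reference T bases between the cytosines of this array also carried C in part of the reads. The array, with 10 bases on either side, has 15 reference T, and 5 to 15 of them were listed with C in each library, with 29.6% to 50% C in sum. At the listed cytosines of the same stretch with 5 or more C reads, the fewest at any listed reference T, C made up 30.6% to 46.9% of reads. What set the share of C at either was not tested. In the arrays of units with G, with 10 bases on either side, 0 of 24 reference T was listed in any library.

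The class of other units with no G had a median level of 27.8% ± 3.17 (SD, n = 6 libraries), and of 90.8% without the best covered array, a CCCTCT array. Members in CAAAAA and in the units with 1 member each had mean levels of at most 2.31%. CTTTTT (chr5:123869340-123869346, plus strand, no annotated gene, 2 members) had summed levels of 34.5% and 25.5% without KCl, 22.6% and 28.6% after 2 h, 17.8% and 12.8% after 6 h. It had 35 to 58 reads summed over its members, so the order of the time points rests on few reads. This array, with 10 bases on either side, has 23 reference T, of which 8 to 20 were listed with C in each library, with 33.5% to 46.9% C in sum, above the level of the cytosines in every library. A reference T was listed with 5 or more C reads and a cytosine with 1 or more, and what set the share of C at either was not tested. CAAAAA had 5 members, each alone in its transcript, with mean levels of 0.157% to 2.31%. They lay in the 3′ UTRs of Gnaq (a G protein subunit), Acp1, Crk (a signalling adaptor) and Mprip, and in the coding sequence of Gsk3b (a kinase). The Gnaq cytosine (chr19:16386009-16386009) stood at 0.0719% and 0.255% without KCl, at 0.110% in the 1 library of 2 h that listed it, and at 0.315% and 0.322% after 6 h, on 1906 to 2782 reads. Single members in Ankrd11, Kif1b and Olig1, an oligodendrocyte lineage transcription factor, had mean levels of 0.251%, 0.395% and 0.0752%.

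The 35 members in units with G all lay in exons, 19 in coding sequence, 13 in 3′ UTRs, 2 in 5′ UTRs and 1 in a non-coding exon. Segments were taken from 1 annotated gene per position. For the last, this was Gm42742, and the deposited labels also give Prrt2. Their median level was 0.139% and 0.191% without KCl, 0.130% and 0.132% after 2 h, 0.246% and 0.218% after 6 h, and 0 members reached 10% in any library. Between 12 and 26 of them were listed in a library, with a median of 1 or 2 unconverted reads, so most levels lay at the limit that listing sets. The set of listed members differed between libraries, and a median over it is no measure of change. Only 1 member had 20 reads in all 6 libraries, in the 3′ UTR of Rapgef1, a guanine nucleotide exchange factor gene (chr2:29738748-29738748, unit CCCCAG). It stood at 0.967% and 0.310% without KCl, 0.0961% and 0.120% after 2 h, 0.10% and 0.0882% after 6 h, on 646 to 1134 reads. The 0 h values, on 8 and 2 unconverted reads, lay above the others, which had 1 unconverted read each, the least a listed position can have. Its two-sided Fisher's exact test gave an adjusted p of 0.417 for 2 h and of 0.235 for 6 h against 0 h.

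The units with G that held the most members were CCCCGG (7, in Sympk, Trim33 and Hras), CCCTAG (7, in Arsb), and CCAGAG and CCCCAG with 6 each (Plagl1, and Rapgef1, Sharpin, Thoc3 and Gm42742, the last also labelled Prrt2). Plagl1, a zinc finger transcription factor, had 6 members in its coding sequence (chr10:13128782-13128806) with mean levels of 0.0501% to 0.326%. Its cytosine 13128782 had 1355 and 1023 reads after 2 h of KCl, and 2907 and 2855 after 6 h. The cytosine 13128806 had 594 and 564 reads without KCl, and 3010 in the 1 library of 6 h that listed it. The 4 Sympk members (coding sequence, chr7:19053964-19053976) had mean levels of 0.0800% to 0.380%.

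Ordinary cytosines give the scale for these levels. Nuclear cytosines in no repeat of a period up to 6 had per-library median levels of 0.164% to 0.240% with a G in the 21-nt context and 0.307% to 0.481% with none, and levels of at least 10% were found in 0.124% to 0.272% and in 5.02% to 10.8% of them. Repeats of shorter period with no G varied widely. Their per-library medians were 1.57% to 7.15% for a period of 2 and 5.36% to 23.5% for 3. For periods of 4 and 5 they were 14.3% to 28.1% and 4.35% to 92.6%. Period 5 was split, with 14 to 21 cytosines per library above 90%, 15 to 29 below 10% and 0 to 10 between. At a period of 4, 5 to 18 of 47 to 88 were above 90%. Outside repeats, 203 to 369 cytosines with no G stood at 100%. Levels near 100% were thus not limited to telomere-type units. With G, a period of 3 had 16 or 17 of 41 to 68 cytosines between 10% and 90%. Periods 4 and 5 with G had 0 at 10% or more. The telomere-type class was higher than each of these groups in every library, at a median of 100%; the classes differ in place, coverage and transcript as well as in unit, and no test was made.

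The standard filter of the study's methods asks for 20 reads, 6 unconverted reads and a level of 10% or more, and was applied here to each replicate, with both required to pass. The other filters of those methods were not applied here, and the members are not in the study's list of high-confidence sites. Of members with 20 reads it kept 459 of 491 without KCl, 445 of 472 after 2 h and 496 of 545 after 6 h. Telomere-type members passed without exception (400 of 400, 405 of 405 and 438 of 438), other members with no G in 59 of 82, 40 of 55 and 58 of 87, and members with G in 0 of 9, 0 of 12 and 0 of 20. Among all other nuclear cytosines 0.160%, 0.156% and 0.145% passed. A further filter of those methods removes reads with more than 3 unconverted cytosines. Telomere-type contexts hold 9 or 10 cytosines, and the levels above show that such reads were counted in the files used here.

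KCl treatment was compared at each listed cytosine with 10 reads in the 4 libraries, by Fisher's exact test on reads summed over replicates, with Benjamini-Hochberg adjustment over all positions tested. Between 0 h and 2 h, 0 of 512 members tested had an adjusted p of 0.05 or less, beside 0.254% of all 290685 positions. Between 0 h and 6 h it was 0 of 520, beside 0.647%, and between 2 h and 6 h 0 of 515, beside 0.666%. With 1 library left out, 0 members passed in each case, while the share of all positions ran from 0.125% (without 0 h replicate 1) to 0.257% between 0 h and 2 h, from 0.168% (without 6 h replicate 1) to 1.97% (without 6 h replicate 2) between 0 h and 6 h, and from 0.114% to 2.28% (without the same libraries) between 2 h and 6 h. These shares moved by more than 1.5 times with any library left out, except 0 h replicate 2 and 2 h replicate 2 between 0 h and 2 h. On simulated data with known differences, Fisher's exact test found most of the larger ones and missed most of the smaller ones over positions with 10 reads or more, so 0 members does not show that levels were the same. The simulated differences were rises between 0 h and 2 h only, with no spread between replicates beyond counting error. At an unadjusted p of 0.05, Fisher's exact test gave 3, 7 and 11 members, beside 6.55%, 8.41% and 9.20% of all positions. By limma, which carries the spread between replicates, 0 members passed in each comparison after adjustment, and 4, 1 and 6 did at an unadjusted p of 0.05 (of all positions, 0.0372%, 0.00884% and 0% after adjustment, and 6.61%, 7.07% and 6.34% before it). A limma fit with precision weights, added after seeing the data because the fit without weights missed changes put into simulated data, also gave 0 members after adjustment, though it too missed most of the smaller known differences over positions with 10 reads or more, and 4, 5 and 5 at an unadjusted p of 0.05 (of all positions, 0.00482%, 0% and 0% after adjustment, and 6.56%, 6.19% and 6.38% before it).

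When the adjustment ran only over positions that passed the standard filter at 1 or both of the compared time points, 0 members passed between 0 h and 2 h (10.6% of all positions so tested), 1 between 0 h and 6 h (6.91%) and 3 between 2 h and 6 h (12%). All of these had the unit CCCTCT and none lay in Kcnma1. After adjustment over all positions, neither Fisher's exact test nor either limma fit called them. Limma was not adjusted over the filtered positions alone, so the methods were not compared there.

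Most telomere-type members could not differ in this test, because 410 of 422, 407 of 424 and 407 of 422 had no converted read in any of the 4 libraries. Their mean level moved by at most 2.00 percentage points. Members with no G of other units moved by -21.2 to 20.9 percentage points between 0 h and 2 h, by -17.8 to 20.7 between 0 h and 6 h and by -19.0 to 21.8 between 2 h and 6 h, with medians of 0. Among them, 30 of 88, 31 of 94 and 30 of 90 had no converted read in the 4 libraries and could not move. The rest rose at 28, 31 and 28 members and fell at 30, 32 and 32. Members of 1 array share reads, and these differences are not independent of each other.

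The same test between the replicates of a time point gave 0 of 527 members without KCl (0.00691% of all positions), 0 of 524 after 2 h (0.00567%) and 0 of 558 after 6 h (0.187%), and 4, 6 and 8 members at an unadjusted p of 0.05, beside 2.14%, 2.66% and 3.88% of all positions.

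Coverage of the telomere-type repeats varied between the 0 h replicates by more than between the means of the time points. Per 1000000 of a library's summed coverage, telomere-type members held 75.0 and 36.0 without KCl, 34.2 and 26.3 after 2 h, 44.4 and 46.3 after 6 h. The 0 h replicates enclosed the 6 h values, and both 2 h values lay below all others. The means were 55.5 ± 27.5, 30.3 ± 5.53 and 45.4 ± 1.41 (SD, n = 2). Other members with no G held 14.0 and 9.28, 8.71 and 4.66, and 10.2 and 14.0, again with both 2 h values below all others. Members with G held 6.03 and 7.14, 7.89 and 10.4, and 11.6 and 12.5, with no overlap between time points, over a changing set of listed positions. With 2 libraries against 2, the smallest two-sided p an exact permutation test can give is 0.333, and the differences in coverage were not tested. In bulk RNA, fewer cells with a transcript and less of it per cell cannot be told apart.

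**Figure D3:**
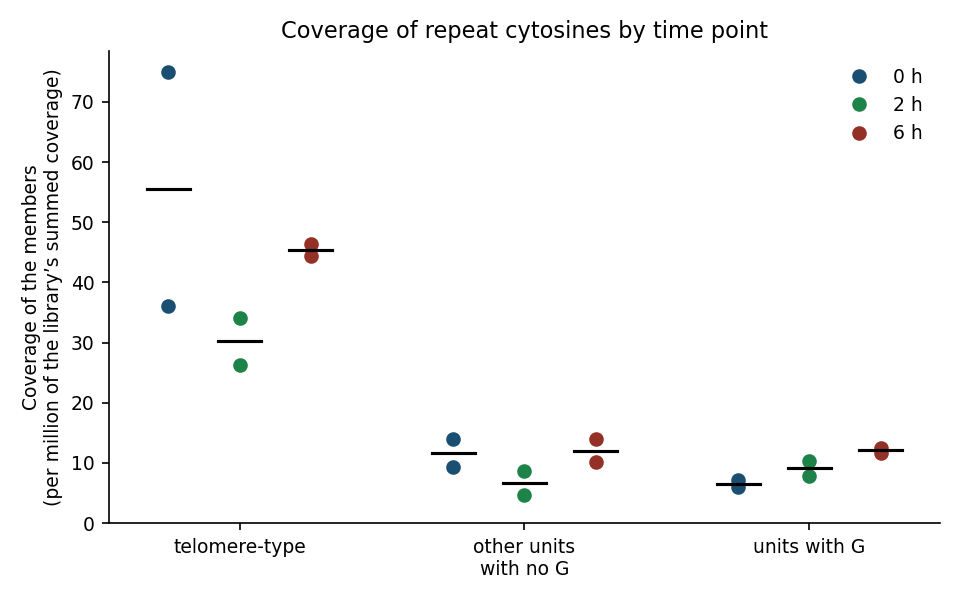
Coverage of the members of each class (vertical axis, per 1000000 of the summed coverage of the library) by time point; points are the 2 biological replicates and bars their mean. The 0 h replicates of telomere-type members, at 75.0 and 36.0, lie farther apart than the means of the time points.

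The choice of members used a coverage limit. Telomere-type cytosines just inside it, whose lower replicate reached 20 to 24 reads at the best covered time point, numbered 22 and had a summed level of 100%, and those just outside, with 15 to 19 reads, numbered 24 and stood at 99.8%. For other units with no G the values were 36.2% over 11 positions inside and 69.7% over 51 outside, and for units with G 3.80% over 7 positions inside and none outside.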

How the data were processed

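The 6 libraries were RNA bisulfite sequencing of poly(A) RNA, in 3 time points of 2 biological replicates, grouped by their labels. According to the methods, reads were trimmed, aligned to the mouse genome (GRCm38; mm10 in the submitters' processing notes) with meRanTK, and cytosines called with the same package. The deposited tables hold, per position, counts of reads (coverage, C and other bases) and the methylation level as a fraction, which the authors computed as C over C plus T; deposited p-values were not used. The listing holds 10 reads or more and 1 C read or more, so levels at low positions are biased upwards.

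Members and gene lists were chosen with earlier results of these data known. Repeats were found in the deposited contexts, checked against the RefSeq genome GRCm38.p6, and annotated by GENCODE. From counts, two-sided Fisher's exact tests (Benjamini-Hochberg over all positions), Cochran-Mantel-Haenszel tests and limma 3.58.1 (R 4.3.3; log2 of C over T reads, 0.5 added) were run and tested on simulated data. Limma without weights was planned and recovered none of the known differences in that test, and a fit weighted by counting error was added afterwards. Fisher's exact test missed most of the smaller known differences over positions with 10 reads or more, and found most of them at 100 reads or more, a limit added after the outcome at 10 reads was seen. The weighted fit found fewer of the smaller ones than Fisher's exact test at both limits. The simulated data held no spread between replicates beyond counting error, so they do not rank the tests for data with such a spread. No sequence printed here was taken from chromosome 18, where members share the telomere-type and CCCCAA contexts. Its contexts and reference bases were used in the check against the genome and in the counts. One CCCTCT array is not described on its own here, though its members stay in the counts, class levels and plots. Precision follows coverage, 10 reads at least per tested position. The genes named were the 3 best covered arrays per class with a member at 20 reads in all 6 libraries (1 or 2 where no more existed), the highest and lowest member, the 3 units with most members (ties kept; Kcnma1 is named through the unit CCCTCT) and the largest called changes (there were none); others are named where they make up a count or stand next to such a result.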

Additional observations from a re-analysis of the deposited data

How the results depend on the processing

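The count of members differing between time points stayed at 0 with a coverage minimum of 20 reads, a minimum difference of 10 percentage points, equal downsampled coverage, limma, and each library left out (0 to 0 in each comparison). Adjusted only over positions passing the standard filter, it was 1 between 0 h and 6 h and 3 between 2 h and 6 h. Limma as planned, without weights, called 108, 29 and 0 positions of all kinds between 0 h and 2 h, 0 h and 6 h, and 2 h and 6 h. It found none of the changes put into simulated data, so its 0 members say nothing about stability. Those data lacked the spread between replicates that limma carries. A weighted fit, chosen after seeing the data and that failure, called 14, 0 and 0 positions. Blocked by replicate number, the Cochran-Mantel-Haenszel test gave 0 members in each comparison, and limma 0 members (49, 62 and 0 positions without weights, 0, 10 and 0 with them). With 2 pairs, the numbers are taken as names only.

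The telomere-type level of 100% was 99.99557% on summed reads and 99.99987% as a median over arrays, and 100% to 100% with each library left out. The level of other members with no G was 41.9% at 10 reads, 22.3% at 50 reads, 13.7% as a median over arrays, 24.6% over members with 20 reads in all 6 libraries, 90.8% without the best covered array (added after seeing the data), and 27.2% to 28.6% with each library left out. That of members with G was 0.280% over the 1 member with 20 reads in all 6 libraries, 0.321% without the best covered array, and 0.162% to 0.185% with each library left out. Members passing the standard filter numbered 285 at 0 h and 241 at 2 h with 50 reads. The causes of these shifts were not tested. Depth limits members with G in that their median was 1 or 2 unconverted reads.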
